A study of Mus musculus with 4 samples.

Results

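The 7 genes described here, Hmgcs1, Idi1, Sqle, Lss, Cyp51, Srebf2 and Insig1, belong to cholesterol synthesis and its control and were taken by gene name from the deposited tables, which hold 23337 gene names. Each name stood on 1 row of each table. The set was drawn up as cholesterol synthesis and uptake, but none of the 7 is an uptake receptor, so uptake is covered only by a separate list of transport genes below. All 7 passed the filter on low values (at least 1 TPM in at least 2 libraries), as did 12251 genes in all.

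RNA came from liver macrophages, called KCs in the labels (Kupffer cells, the macrophages that reside in liver), of Lyz2cre-RosaYFP reporter mice aged 6 to 8 weeks, both males and females. The reporter marks a cell in yellow once Cre, driven from the lysozyme locus, has acted in it or in a precursor. Cells were sorted into YFP+ and YFP- fractions, and each fraction has 2 libraries. The labels name Lyz2cre-RosaYFP for all mice and enter YFP+ or YFP- as the genotype of each library. In each fraction the title of 1 library starts with M and that of the other with FM, and the labels do not say what these letters stand for or how many mice gave each library.

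Animal cells make cholesterol from acetyl-CoA through mevalonate, isoprenoid units and squalene, the first sterol being lanosterol. When sterol in the endoplasmic reticulum runs low, the membrane-bound factor SREBP2 is carried to the Golgi, cut, and sent to the nucleus, where it switches on the enzymes of the pathway; when sterol is plentiful, INSIG proteins hold SREBP2 and its escort in the endoplasmic reticulum. Macrophages also take in much cholesterol with lipoproteins and engulfed cells, and oligodendrocytes and astrocytes of the brain are known for strong synthesis.

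Levels are given as TPM, a length-corrected unit that adjusts for transcript size and sums to 1000000 in each library, so a gene's value also depends on what else the library holds. The YFP+ FM library stands apart: its 100 most abundant genes take 66.1% of all TPM and 7386 genes reach 1 TPM, against 54.0% and 10302 genes in YFP+ M, 40.9% and 12434 genes in YFP- M, and 29.7% and 12829 genes in YFP- FM. Read counts are not in the files. Mean read coverage of the 7 genes was 3.67 to 18.4 in YFP+ M and 0 to 5.14 in YFP+ FM, against 20.1 to 86.8 in YFP- M and 7.79 to 37.6 in YFP- FM, with the lowest values in YFP+ FM. The 10 genes listed as Kupffer cell markers had a high sum in every library. They summed to 59979 TPM in YFP+ M and 65336 TPM in YFP+ FM, against 20778 TPM in YFP- M and 31224 TPM in YFP- FM. The most abundant of them, C1qb and C1qa, had 5862 and 4607 TPM in YFP- M and 4866 and 4877 TPM in YFP- FM. In YFP+ M they had 13029 and 10472 TPM, and in YFP+ FM 16502 and 16699 TPM. Which macrophages gave this RNA was not tested, and this sum was not shown to tell Kupffer cells from other macrophages. The 8 microglia markers, of the macrophages of brain, summed to 969 and 73.0 TPM in the YFP+ libraries, against 16857 and 15261 TPM in the YFP- libraries (M before FM).

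All 7 cholesterol synthesis genes were lower in both YFP+ libraries than in either YFP- library, and 5 of them (Hmgcs1, Idi1, Sqle, Lss and Cyp51, the enzymes) fell past the threshold, while 0 rose (limma-trend on log2(TPM + 1), Benjamini-Hochberg adjusted p under 0.05 over all tested genes, with 0 higher also at an unadjusted p under 0.05). These counts stand against a general shift. Of all tested genes 39.5% were called lower and 0.522% higher in YFP+; 79.7% had both YFP+ libraries below both YFP- libraries and 2.50% had both above, so neither the direction nor the lack of overlap sets the 7 genes apart. Their median log2 fold change was -2.16, beside -1.73 for all tested genes. In such bulk RNA, fewer cells of a type and less of an RNA per cell cannot be told apart.

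Among the enzymes of the mevalonate part, Hmgcs1, which makes HMG-CoA at the entry of the pathway (chromosome 13, 119690462 to 119708077, GRCm38), had 3.63 TPM in YFP+ M and 0.905 TPM in YFP+ FM, against 15.9 TPM in YFP- M and 32.3 TPM in YFP- FM. The groups were far apart, and on the log2(TPM + 1) scale the change was the largest of the 7 genes, with a log2 fold change of -3.00 (SE 1.12, limma adjusted p = 0.0261). Idi1, the isomerase that readies isoprenoid units for joining (chromosome 13, 8885606 to 8892396), had 1.13 TPM in YFP+ M and was listed at 0 in YFP+ FM, against 4.37 TPM in YFP- M and 6.95 TPM in YFP- FM. It was the lowest of the 7 genes in each library except YFP- M, where Lss was lower. Its log2 fold change was -2.16 with the smallest adjusted p of the set (SE 0.63, limma adjusted p = 0.00463). With a pseudocount of 0.1 the order turned, with -4.00 for Idi1 and -3.56 for Hmgcs1.

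The squalene and sterol enzymes fell as well. Sqle, the squalene epoxidase that commits squalene to sterols (chromosome 15, 59315092 to 59331193), had 1.88 TPM in YFP+ M and 0.596 TPM in YFP+ FM, against 9.87 TPM in YFP- M and 13.7 TPM in YFP- FM. Its log2 fold change was -2.56 (SE 0.95, limma adjusted p = 0.0258). Lss, which closes the ring system to give lanosterol (chromosome 10, 76531627 to 76553934), had 1.77 TPM in YFP+ M and 0.618 TPM in YFP+ FM, against 3.70 TPM in YFP- M and 14.0 TPM in YFP- FM. The YFP- libraries of Lss lay far from each other. Its log2 fold change of -1.99, the smallest fall of the 5 that passed, was also the closest to the threshold (SE 0.83, limma adjusted p = 0.0440). Cyp51, the demethylase of lanosterol (chromosome 5, 4080674 to 4104697), had 2.54 TPM in YFP+ M and 0.381 TPM in YFP+ FM, against 8.93 TPM in YFP- M and 17.0 TPM in YFP- FM. Its log2 fold change was -2.59 (SE 0.98, limma adjusted p = 0.0269).

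The regulators did not pass the threshold. Srebf2, which encodes SREBP2 (chromosome 15, 82147269 to 82204960), had 4.91 TPM in YFP+ M and 1.796 TPM in YFP+ FM, against 6.49 TPM in YFP- M and 33.5 TPM in YFP- FM. The YFP- FM library alone was high. The log2 fold change of -1.98 had a 95% interval of -4.17 to 0.20 (limma adjusted p = 0.128). Insig1, a target of SREBP2 that holds the factor back (chromosome 5, 28071412 to 28078662), had 5.67 TPM in YFP+ M and 2.44 TPM in YFP+ FM, against 6.17 TPM in YFP- M and 13.9 TPM in YFP- FM. The M libraries were nearly level for Insig1. Its log2 fold change of -1.11 had a 95% interval of -3.23 to 1.01 (limma adjusted p = 0.374), and 74.4% of tested genes had a lower one, whereas for the other members that share was 8.09% for Hmgcs1 to 39.5% for Srebf2.

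**Figure D1:**
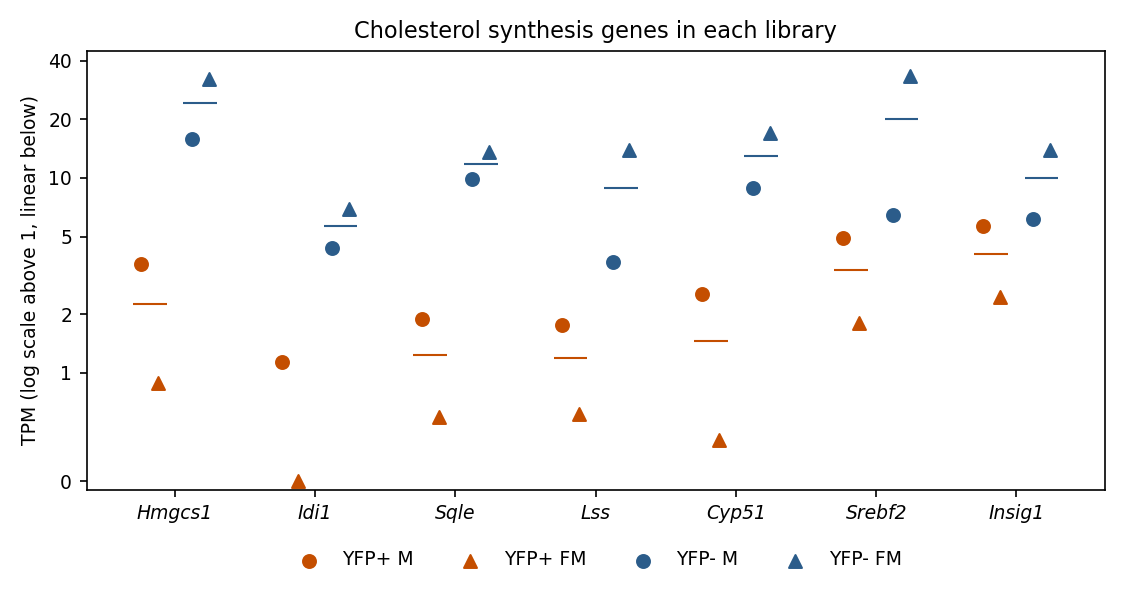
TPM of the 7 cholesterol synthesis genes in each library, on an axis that is logarithmic above 1 and linear below; orange marks YFP+ and blue YFP- libraries, circles M and triangles FM titles, and short lines the mean of 2 libraries (left out for Idi1 in YFP+, listed at 0 in 1 library). Both YFP+ points lie below both YFP- points for each gene, with the smallest gap for Insig1 (5.67 TPM in YFP+ M against 6.17 TPM in YFP- M).

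The libraries with M and FM titles gave the same direction but not the same size. Between the M libraries the median log2 difference of the 7 genes was -1.33, beside -1.01 for all tested genes. Between the FM libraries the medians were -3.21 for the 7 genes and -2.48 for all tested genes. In the M pair Sqle (-1.91) and Hmgcs1 (-1.87) were furthest down and Insig1 (-0.10) and Srebf2 (-0.34) least. In the FM pair Hmgcs1 (-4.13) was furthest down and Insig1 (-2.11) least. The count of 5 rests on all 4 libraries: it was 6 without YFP+ M, with Srebf2 added, and 0 without YFP+ FM, without YFP- M or without YFP- FM, when 4, 1 and 1 members were lower at an unadjusted p under 0.05. With the title start as a block 1 member, Idi1, was called lower (limma adjusted p = 0.0458), beside 14.1% of all tested genes lower and 0.188% higher. With 2 libraries a side, 0.333 is the smallest p an exact permutation test (two-sided) allows, and each of the 7 genes gives it.

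Once the libraries were brought to a common scale, no member passed, and Insig1 changed sign. Quantile normalization, median-ratio scaling and cyclic loess moved the median of all tested genes from -1.73 to -0.03, -0.08 and -0.01. Relative to these, Hmgcs1 stayed below the median of all genes, at -0.94, -1.16 and -0.78, and so did Idi1 (-0.65, -1.15 and -0.44), Cyp51 (-0.63, -1.01 and -0.45) and Sqle (-0.51, -0.89 and -0.43). Lss (0.01, -0.38 and -0.02) and Srebf2 (0.09, -0.04 and 0.24) lay near 0, with the sign depending on the scaling. Insig1 stood at 0.97, 0.84 and 1.12 in the same order (limma adjusted p = 0.252, 0.277 and 0.189). By limma 0 of the 7 genes were called under the 3 scalings in either direction, where 1.67%, 5.90% and 0.327% of all tested genes were called lower and 1.21%, 5.62% and 0.531% higher. At an unadjusted p under 0.05 the members counted 0 under quantile normalization, 2 lower under median-ratio scaling and 1 higher under loess.

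**Figure D2:**
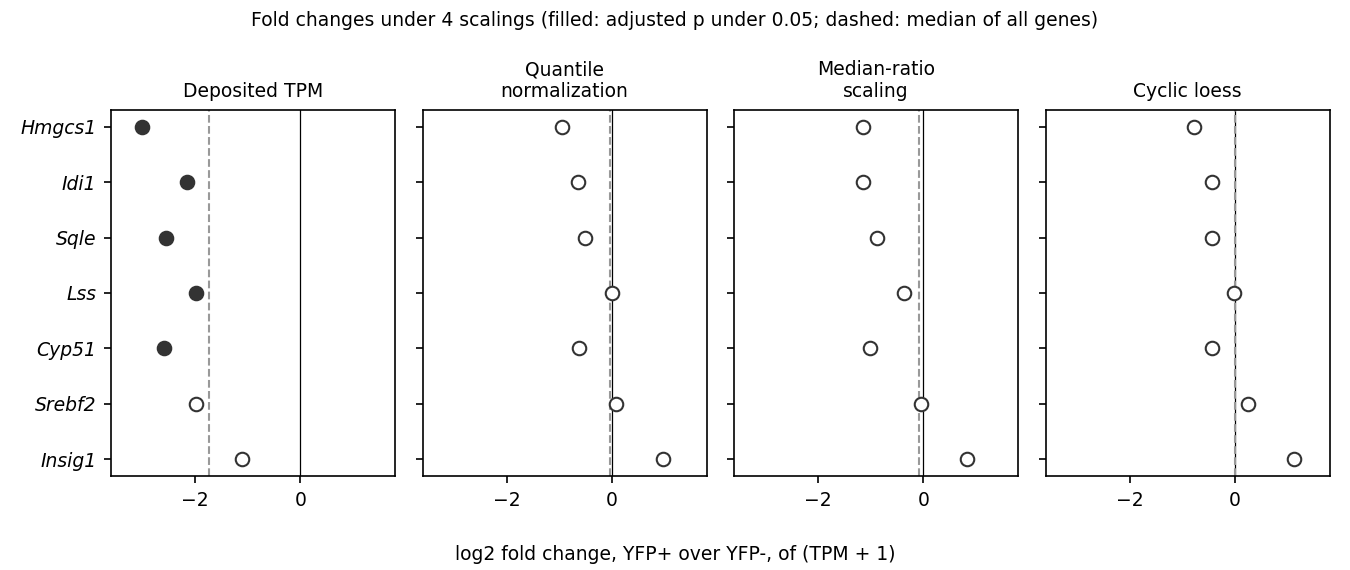
Log2 fold changes of (TPM + 1), YFP+ over YFP-, for the 7 genes in the deposited TPM and under 3 scalings of the libraries; filled points have an adjusted p under 0.05 and the dashed line is the median of all tested genes. The deposited values give 5 filled points and each scaling 0, and Insig1 lies right of 0 in all 3 scaled panels (0.97, 0.84 and 1.12).

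Ratios between 2 genes within a library are not changed by a single factor per library, such as median-ratio scaling, though quantile normalization and loess can change them; they were taken from the deposited TPM, after the levels had been seen. Relative to Hmgcs1, Insig1 was at a ratio of 1.56 in YFP+ M and 2.70 in YFP+ FM, against 0.387 in YFP- M and 0.429 in YFP- FM. Insig1 was thus the most abundant of the 7 transcripts in both YFP+ libraries, while Hmgcs1 led in YFP- M and Srebf2 in YFP- FM. Of the summed TPM of the 7 genes, Insig1 made up 26.3% in YFP+ M and 36.2% in YFP+ FM, against 11.1% in YFP- M and 10.6% in YFP- FM. Srebf2 over Hmgcs1 was 1.35 in YFP+ M and 1.99 in YFP+ FM, against 0.407 in YFP- M and 1.04 in YFP- FM, also without overlap. Sqle over Hmgcs1 and Cyp51 over Hmgcs1 overlapped between the groups, with 0.520 and 0.659 in YFP+ against 0.619 and 0.422 in YFP- for Sqle and 0.702 and 0.421 in YFP+ against 0.560 and 0.525 in YFP- for Cyp51 (M before FM).

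Of the 15 ratios among the 6 members above 0 in every library, 9 did not overlap between groups, beside 62.5% of all pairs of such tested genes, so the number of separated ratios is near the background. Against all other such genes, separated ratios made up 74.2% for Hmgcs1, 73.2% for Cyp51, 70.8% for Sqle, 64.9% for Insig1, 46.4% for Lss and 33.0% for Srebf2. Insig1 was in 5 of the 9, all 5 that include it, with the higher ratio to the other member in YFP+. Over the whole table, 54.3% of the other tested genes had a ratio of Insig1 to them that was higher in both YFP+ libraries, while the same share was 4.66% for Hmgcs1, 6.36% for Sqle, 6.50% for Cyp51, 8.41% for Lss and 12.7% for Srebf2. By rank among all gene names, Insig1 stood at 6372 in YFP+ M and 5440 in YFP+ FM, against 8877 in YFP- M and 7536 in YFP- FM, where 1 is the most abundant gene. Hmgcs1 ranked 7515 in YFP+ M and 7618 in YFP+ FM, against 5926 in YFP- M and 4782 in YFP- FM. Of all tested genes, 23.7% stood nearer the top in both YFP+ libraries, like Insig1, and 32.3% further from it, like Hmgcs1. The libraries list 12452 to 17184 genes above 0, and the part of this in the ranks was not tested. The ratios were given no test, since 0.333 is again the smallest p an exact permutation test allows.

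**Figure D3:**
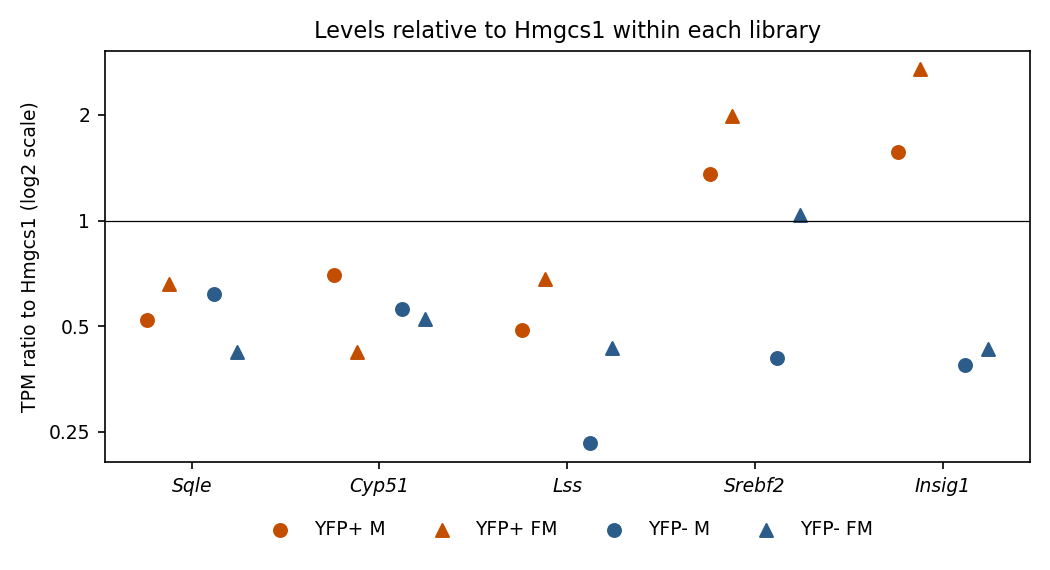
TPM of Sqle, Cyp51, Lss, Srebf2 and Insig1 divided by the TPM of Hmgcs1 in the same library, on a log2 axis; orange marks YFP+ and blue YFP- libraries, circles M and triangles FM titles, and Idi1 is left out because it is listed at 0 in 1 library. Insig1 lies above 1 in both YFP+ libraries (1.56 and 2.70) and below 0.5 in both YFP- libraries (0.387 and 0.429), while Sqle and Cyp51 overlap.

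The promoters of these genes are where SREBP2 binds, at sterol regulatory elements that commonly lie beside sites of NF-Y, which reads CCAAT, and Sp1, which reads GGGCGG. The 250 bases before the RefSeq start of each gene, which for Hmgcs1 and Lss lies ahead of the start in the deposited tables, were read from RefSeq sequences of GRCm38.p6, which matched 6 of the 7 members; Sqle is named only. They are printed for 4 members: Hmgcs1 and Cyp51 as enzymes that fell, Srebf2 as the regulator and Insig1 as the member whose relative level differed most from Hmgcs1. The windows of Idi1 and Lss, enzymes that fell as well, are not printed. Capitals mark matches, on either strand, to TCACNNCA, a loose form of the sterol regulatory element in which N is any base; the letters were chosen with the promoters in view. The windows, each 5′ to 3′ on the strand of its gene, are chr13:119690101-119690350 on the plus strand for Hmgcs1, chr5:4104698-4104947 on the minus strand for Cyp51, chr15:82147019-82147268 on the plus strand for Srebf2 and chr5:28071162-28071411 on the plus strand for Insig1.
Hmgcs1: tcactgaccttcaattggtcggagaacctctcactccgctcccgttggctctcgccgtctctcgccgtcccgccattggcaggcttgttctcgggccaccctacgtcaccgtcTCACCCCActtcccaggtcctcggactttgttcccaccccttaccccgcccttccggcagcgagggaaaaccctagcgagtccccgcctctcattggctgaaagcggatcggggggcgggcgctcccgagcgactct
Cyp51: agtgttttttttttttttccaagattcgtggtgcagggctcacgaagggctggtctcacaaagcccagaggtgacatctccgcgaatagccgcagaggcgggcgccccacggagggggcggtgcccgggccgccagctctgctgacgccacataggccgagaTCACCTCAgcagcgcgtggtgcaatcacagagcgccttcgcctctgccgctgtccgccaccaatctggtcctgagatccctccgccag
Srebf2: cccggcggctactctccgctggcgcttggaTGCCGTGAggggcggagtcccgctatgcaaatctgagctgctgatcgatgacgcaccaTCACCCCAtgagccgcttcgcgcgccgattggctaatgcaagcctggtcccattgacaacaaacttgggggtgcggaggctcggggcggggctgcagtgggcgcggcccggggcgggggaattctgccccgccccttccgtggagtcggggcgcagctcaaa
Insig1: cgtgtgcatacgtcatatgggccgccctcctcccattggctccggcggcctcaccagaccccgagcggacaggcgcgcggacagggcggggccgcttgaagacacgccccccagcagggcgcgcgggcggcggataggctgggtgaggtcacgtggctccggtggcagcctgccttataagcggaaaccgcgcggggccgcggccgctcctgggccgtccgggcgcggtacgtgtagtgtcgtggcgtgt

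The loose element was present in 3 of the 6 windows read (Hmgcs1, Cyp51 and Srebf2), and in 11.4% of the 32851 RefSeq promoter windows of the same length. Since its letters were chosen with these promoters in view, setting these shares side by side is no test of enrichment. In Hmgcs1 it begins 137 bases before the start and in Cyp51 88 bases before it. Srebf2 has matches beginning 220 and 162 bases before the start, the further one on the opposite strand. CCAAT, on either strand, was in 6 of 6 windows beside 33.8% of all windows, and GGGCGG in 6 of 6 beside 32.7%. The 6 windows had 51.2% GC in Idi1 to 73.6% in Lss, with a median over all windows of 52.4%, and GGGCGG is more frequent in GC-rich sequence. The motifs do not overlap in the letters capitalised here. Insig1, Idi1 and Lss have no match to TCACNNCA in these windows, which says only that those letters are not in this stretch.

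Genes of the same pathways were read from 5 lists with 47 genes that are no members, of which 45 were tested; 0 rose (also 0 at an unadjusted p under 0.05) and 15 fell by limma, where 39.5% of all tested genes were called lower, and the median log2 fold change was -1.59, beside -1.73 for all tested genes. The falls in these lists, members included, did not hold across settings. Under each of the 3 scalings 0 genes of any list were called lower in limma, with 0 to 2 a list at an unadjusted p under 0.05. With the title start as a block, 0 genes of the squalene, SREBP control and uptake lists were called lower (3, 3 and 1 at an unadjusted p under 0.05), 1 of the mevalonate list, Idi1, and 2 of the fatty acid list, Elovl6 and Me1. Without YFP+ FM 0 genes of any list were called; without YFP- M or without YFP- FM 0 were called in the 4 sterol lists, and 2 and 1 in the fatty acid list. In these runs 0 to 4 genes a list were lower at an unadjusted p under 0.05. In the mevalonate list 6 further genes were tested, 0 rose and 0 fell in limma (1 lower at an unadjusted p under 0.05). The nearest to the threshold was Ggps1, which makes the geranylgeranyl chain, at 2.61 and 0.779 TPM in YFP+ against 11.5 and 11.4 TPM in YFP- (M before FM, here and for all pairs of values below; log2 fold change -2.30, limma adjusted p = 0.0513). Fdps (-2.12, adjusted p = 0.107), which makes farnesyl diphosphate, Acat2 (-1.98, adjusted p = 0.130), which joins acetyl-CoA units, and mevalonate kinase Mvk (-1.51, adjusted p = 0.255) did not pass in limma. Mvk turned to a higher level under each of the 3 scalings, and Acat2 under quantile normalization and loess.

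From squalene to cholesterol, 9 further genes were tested, 0 rose and 4 fell, beside 39.5% of all tested genes called lower. Lbr, a sterol reductase that also anchors chromatin to the nuclear envelope, had 19.97 and 2.95 TPM in YFP+ against 86.4 and 109.8 TPM in YFP- (log2 fold change -3.43, limma adjusted p = 0.00801). Msmo1, the methyl sterol oxidase that acts after Cyp51 and is listed in the files under an older symbol, had 6.84 and 0.654 TPM in YFP+ against 35.8 and 30.6 TPM in YFP- (-3.24, limma adjusted p = 0.0191). Both log2 fold changes were more negative than that of any member; this difference was not tested. Sc5d, the sterol desaturase, fell by 2.77 on the log2 scale (limma adjusted p = 0.0388), and Nsdhl, a sterol dehydrogenase, did not pass (-2.58, limma adjusted p = 0.0537).

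In the list of SREBP control, 9 further genes were tested, 0 rose and 5 fell, again beside 39.5% of all tested genes called lower. Insig2, the partner of Insig1 in holding SREBP in place, had 9.32 and 1.40 TPM in YFP+ against 41.4 and 54.3 TPM in YFP- (log2 fold change -3.28, limma adjusted p = 0.0165). The ratio of Insig1 to Insig2, taken after the levels had been seen, was 0.609 in YFP+ M and 1.74 in YFP+ FM. In YFP- M it was 0.149 and in YFP- FM 0.256, again without overlap. This is common for Insig1: of its ratios to other tested genes above 0 in every library, 64.9% did not overlap and 54.3% were higher in both YFP+ libraries. The protease genes Mbtps1 (-2.79, adjusted p = 0.0310) and Mbtps2 (-1.95, adjusted p = 0.00823), whose products cut SREBP in the Golgi, fell in limma, Mbtps2 being named after its values were seen. Rnf139 (-2.82, limma adjusted p = 0.0369), a ubiquitin ligase gene, fell as well.

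Uptake and lysosomal export genes had a median fold change above that of all tested genes, a difference that was not tested. Of 13 tested, 0 rose and 2 fell, the median log2 fold change was -0.70 beside -1.73 for all tested genes, and 6 of 13 had both YFP+ libraries below both YFP- libraries beside 79.7% of all tested genes. Npc1, which exports cholesterol from lysosomes, had 18.3 and 3.797 TPM in YFP+ against 53.0 and 120.1 TPM in YFP- (log2 fold change -3.07, limma adjusted p = 0.0181). Cd36, a scavenger receptor for lipids, had 6.58 and 0.555 TPM in YFP+ against 10.9 and 43.4 TPM in YFP- (-2.74, limma adjusted p = 0.0419). Mylip, a ligase that removes lipoprotein receptors (-2.19, adjusted p = 0.0568), and the lysosomal sterol carrier Stard3 (-1.90, adjusted p = 0.0926) did not pass in limma. Under median-ratio scaling 5 of the 13 were called higher, where 5.62% of all tested genes were, among them, named here after their values were seen, the scavenger receptors Scarb1 (2.97, adjusted p = 0.0244) and Msr1 (1.99, adjusted p = 0.0383), the lysosomal protein Scarb2 (2.23, adjusted p = 0.0487) and the lipoprotein receptor Lrp1 (2.48, adjusted p = 0.0258). None of the 5 passed in limma under quantile normalization or loess, or in the deposited values.

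Fatty acid synthesis, the branch under SREBP1, held 8 tested genes, of which 0 rose and 4 fell, beside the same 39.5%. The desaturase genes Scd2, at 10.8 and 1.93 TPM in YFP+ against 76.3 and 69.4 TPM in YFP- (log2 fold change -3.65, limma adjusted p = 0.00634), and Scd1 (-2.77, adjusted p = 0.0311) were among them. The others, Elovl6 (-1.59, adjusted p = 0.00596), which lengthens fatty acids, and Me1 (-1.22, adjusted p = 0.00218), the malic enzyme, were named after their values were seen. Acly (-1.72, adjusted p = 0.138) and Acss2 (-1.88, adjusted p = 0.152), which supply acetyl-CoA, did not pass in limma. By distance of the centred log2(TPM + 1) values over the 4 libraries, the non-member of these lists closest to the mean of the 7 genes was Dhcr7 (0.29), the last reductase of the pathway, followed by Stard3 (0.48) and Mylip (0.48).

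**Figure D4:**
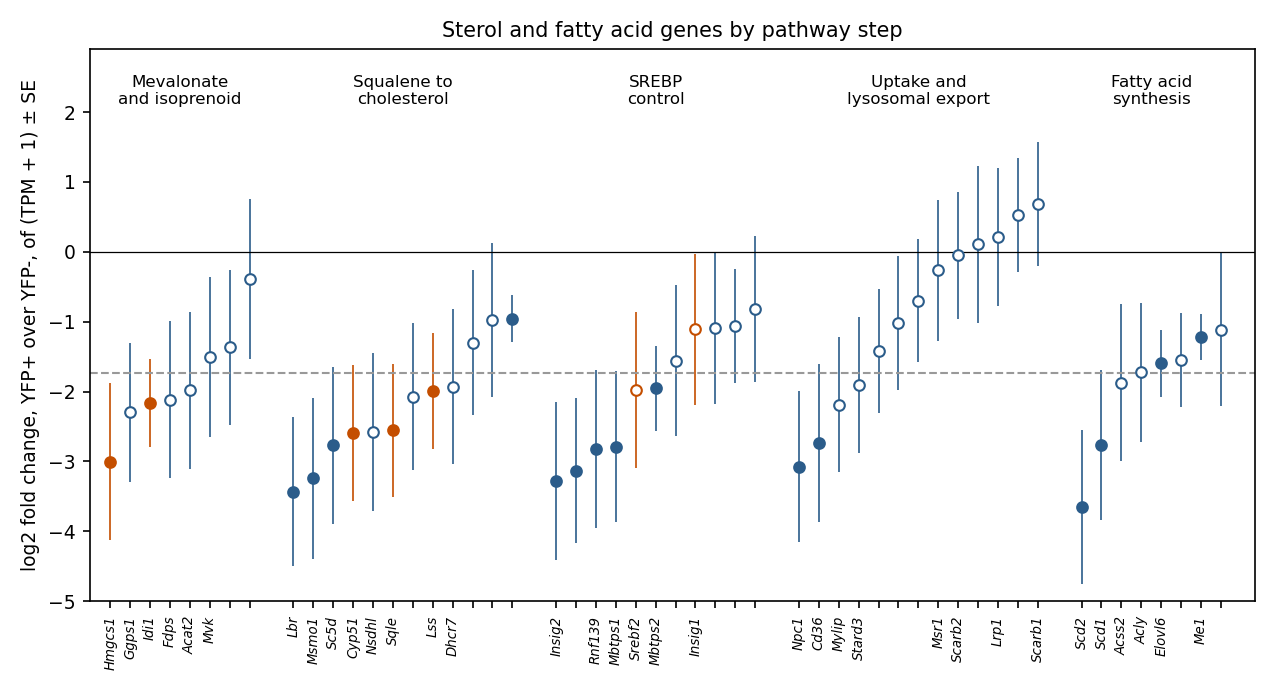
Log2 fold changes of (TPM + 1) with their limma standard errors, YFP+ over YFP-, for the tested genes of the 5 lists ordered within each list; orange marks the 7 members, blue other genes (labelled where named in the text), filled points an adjusted p under 0.05 and the dashed line the median of all tested genes (-1.73). Synthesis genes spread around the dashed line and the uptake and export genes reach above it, up to 0.69 for Scarb1.

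The summed markers of each other cell type except neutrophils were lower in both YFP+ libraries than in either YFP- library; counts of lower genes stand beside 39.5% of all tested genes. The 8 oligodendrocyte markers summed to 105.5 and 27.1 TPM in YFP+ against 739 and 846 TPM in YFP-. Most of the YFP- sum was Mbp, at 27.3 and 1.65 TPM in YFP+ against 626 and 643 TPM in YFP-. Cnp differed less, at 74.4 and 22.8 TPM in YFP+ against 84.4 and 164 TPM in YFP-. Of the oligodendrocyte markers 3 of 5 tested fell, and 2 and 5 of the 8 were listed at 0 in the YFP+ libraries against 0 and 2 in the YFP- libraries. The 6 astrocyte markers summed to 34.4 and 5.73 TPM in YFP+ against 201 and 182 TPM in YFP-, with 5 of 6 lower and 2 listed at 0 in YFP+ FM. All 8 microglia markers fell, with Fcrls at 155 and 6.15 TPM in YFP+ against 3055 and 3109 TPM in YFP-. The 7 endothelial markers summed to 219 and 95.03 TPM in YFP+ against 786 and 856 TPM in YFP-, with 5 lower. Cldn5 was at 19.1 and 4.36 TPM in YFP+ against 435 and 372 TPM in YFP-. Cdh5 overlapped between the groups, at 122 and 62.3 TPM in YFP+ against 56.4 and 144 TPM in YFP-. The 7 hepatocyte markers summed to 317 and 686 TPM in YFP+ against 1344 and 2120 TPM in YFP-, with 2 lower. Ttr made up much of the sum in YFP- M, at 55.5 and 51.9 TPM in YFP+ against 1053 and 830 TPM in YFP-. In YFP- FM Alb was higher than Ttr. Which cells gave the Ttr RNA was not tested. Alb overlapped between the groups, at 156 and 378 TPM in YFP+ against 183 and 1066 TPM in YFP-. The 5 T and NK cell markers found summed to 152 and 92.7 TPM in YFP+ against 1110 and 367 TPM in YFP-, with 4 lower, and the 6 neuron markers to 4.90 and 2.27 TPM in YFP+ against 19.8 and 13.4 TPM in YFP-, with 2 of 4 tested lower. The 5 neutrophil markers found overlapped between the groups, at 1233 and 6540 TPM in YFP+ against 1679 and 2864 TPM in YFP-, with 1 lower. Of the 10 Kupffer cell markers 6 rose in limma, beside 0.522% of all tested genes called higher. All marker counts are from the deposited TPM and were not repeated under the 3 scalings. The part of the RNA of these cell types in the levels of the cholesterol synthesis genes was not tested.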

How the data were processed

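Each of the 4 libraries has its own table with 3 measures per gene. Per the file headers the authors deposited mean read coverage, FPKM (fragments scaled by transcript length and library size) and TPM. The submitters' processing notes name HISAT, GRCm38 and mm10. The sources used here name neither the program that made the tables nor whether counting used strand. Depth in reads is unknown, so no counting interval is given; coverage at 1 FPKM was 2.59 to 9.19.

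Rows of 1 name were summed, and a gene was kept where 2 or more libraries reached 1 TPM (12251 of 23337). Values of log2(TPM + 1) were fitted by YFP group in limma 3.58.1 (R 4.3.3), using its moderated test with a variance trend and a Benjamini-Hochberg threshold of 0.05. Error values are limma's moderated standard errors. The fit gave the variance trend infinite weight, so p-values and standard errors rest on the trend over all genes, not on a gene's own spread. The scale understates changes of low genes. It also goes with small standard errors for them, 0.63 for Idi1, 0.48 for Elovl6 and 0.33 for Me1, against 1.12 for Hmgcs1. This limits the small adjusted p of these low genes. Nothing says that libraries came from separate mice, so the spread between libraries that the trend was fitted to may be technical.

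Members and lists were chosen with earlier results of these data known. Of 118 listed symbols 2 matched through an older symbol and 2 had no match. Named genes are all members, up to 4 further genes per pathway list (smallest adjusted p, mean of at least 5 TPM), the 3 of closest profile, and up to 2 most abundant genes per marker list; others are marked in the text. A few genes counted in the lists are not reported here by name. Alternatives were a pseudocount of 0.1, other filters, 3 scalings, FPKM, no variance trend, the title start as a block and each library left out; ratios, ranks and runs for genes that are no members were chosen after seeing the data. Replicate numbers follow deposit order; libraries of the same title start did not deviate together (correlation across genes -0.01). Other steps and plots used Python 3.11.15 with pandas 2.3.3.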

Additional observations from a re-analysis of the deposited data

Results flagged for a closer look

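Of the genes named above, 4 of the uptake list moved in opposite directions in the M and FM libraries; the difference between the title starts was not tested, since each has 1 library per group. As log2(TPM + 1), the difference of YFP+ from YFP- was 1.30 in M and -0.87 in FM for Lrp1, 1.90 and -0.53 for Scarb1, 0.97 and -1.50 for Msr1, and 1.22 and -1.32 for Scarb2 (M before FM). These 4 genes were named after their values were seen. All 7 cholesterol synthesis genes were lower in YFP+ in both title starts.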

How the results depend on the processing

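No paired design is given by the labels, and the block fits are alternatives. The enzymes Hmgcs1, Idi1, Sqle and Cyp51 were lower in YFP+ under every alternative run, but their calls were not stable. Members called were 5 of 7 in the deposited TPM, 4 with FPKM, 6 without a variance trend, 3 of 5 tested with a filter at 5 TPM, 2 with no filter, 2 with a pseudocount of 0.1, 1 with the title start as a replicate block and 0 under quantile normalization (with or without the block), median-ratio scaling and loess; leaving out 1 library gave 0 to 6. With both quantile normalization and the block, 1 member was higher and 1 lower at an unadjusted p under 0.05. The members' median log2 fold change of -2.16 moved to -0.51 under quantile normalization (also with the replicate block) -0.43 under loess, -0.89 under median-ratio scaling and -3.32 with a pseudocount of 0.1, and ranged from -2.82 to -1.62 with 1 library left out. All genes called were 4898 (64 higher, 4834 lower), against 105 under loess, 353 under quantile normalization, 1412 under median-ratio scaling, 1402 with quantile normalization and the replicate block, 1749 with the replicate block alone, 2959 with the filter at 5 TPM, 3129 with a pseudocount of 0.1 and 879 to 8318 with 1 library left out. The split moved with scaling, to 148 higher and 205 lower under quantile normalization, 689 and 723 under median-ratio scaling and 65 and 40 under loess. Of the genes of the 5 pathway lists 20 were called, all lower, against 0 under quantile normalization and 5 under median-ratio scaling, all higher and all in the uptake list. The cause of these shifts was not tested.

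Signs turned for these log2 fold changes. Under quantile normalization, with or without the replicate block, they were 0.97 for Insig1, 0.011 for Lss, 0.085 for Srebf2, 0.10 for Acat2, 0.19 for Acss2, 1.22 for Msr1, 0.56 for Mvk and 0.91 for Scarb2. Under median-ratio scaling they were 0.84 for Insig1, 0.54 for Acly, 0.057 for Acss2, 0.23 for Dhcr7, 1.99 for Msr1, 0.54 for Mvk, 0.078 for Mylip, 2.23 for Scarb2 and 0.37 for Stard3. Under loess they were 1.12 for Insig1, 0.24 for Srebf2, 0.24 for Acat2, 0.35 for Acss2, 0.034 for Dhcr7, 0.11 for Fdps, 0.018 for Me1, 1.11 for Msr1, 0.70 for Mvk and 0.70 for Scarb2. With FPKM they were 0.27 for Msr1 and 0.49 for Scarb2. Leaving out 1 library gave either sign for Lrp1 (-0.68 to 1.11), Scarb1 (-0.30 to 1.67), Msr1 (-0.99 to 0.46) and Scarb2 (-0.76 to 0.66). The low coverage of the 7 genes in YFP+ FM limits each of them. Coverage at 1 TPM was 3.24 in YFP+ M, 2.10 in YFP+ FM, 5.44 in YFP- M and 1.12 in YFP- FM, so YFP+ FM was not the lowest by this measure.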
